A study of Mus musculus with 12 samples.

Results

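The genes described here are 6 red blood cell and heme genes, Alas2, Slc4a1, Hba-a1, Hbb-b1, Ahsp and Epor. They were followed as a sign of blood content over 6 comparisons of treated with vehicle-treated mouse back skin. Members were the probes whose gene name on the array equals one of these symbols. Of the 6 names, 5 were found, each with 1 probe, so that 5 of the 41174 transcript probes and 5 of the 27373 gene names are members. No probe carries the name Hbb-b1. The β-globin probes of this array are named Hbb-bt, and 3 of the 4 Hbb-bt probes list the RefSeq accession of Hbb-b1. Hbb-bt is therefore described beside the members, together with the second α-globin gene Hba-a2, and is not counted among them.

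The samples were whole back skin of male C57BL/6J mice bought at 8 weeks of age. From the day after shaving, 200 µL of 3% minoxidil (MXD), 10% Notocactus ottonis cell extract (N-CE) or vehicle (VC, propylene glycol, ethanol and water) was put on the back every day, and skin was taken after 1 (1W), 2 (2W) and 3 weeks (3W). The RNA of a group was a pool from 6 mice. Treated and VC pools of the same week were put together on 2 two-colour arrays, with the dyes exchanged on the second. The 12 arrays thus give 6 comparisons, each of 1 treated pool with 1 VC pool, with no biological replicate inside a week. All groups share the shaving and the vehicle. Skin for RNA was collected after spinal dislocation, and perfusion is described only for the histology, so blood was not flushed from these samples as far as the methods say. Whole skin also holds hair follicles, muscle and vessels, and in such a sample fewer cells of a type and less RNA per cell cannot be told apart.

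Haemoglobin is a tetramer of α and β chains that each hold a heme, and red cell precursors fill themselves with its mRNA before they lose the nucleus. Young red cells in the blood, the reticulocytes, still carry globin mRNA, which makes globin transcripts a usual marker of blood in a tissue RNA sample. Alas2 starts heme synthesis in red cell precursors, Ahsp is a chaperone of free α chains, Slc4a1 (band 3) exchanges chloride and bicarbonate across the red cell membrane, and Epor is the erythropoietin receptor. C57BL/6 mice carry the adult β-globin genes Hbb-bs and Hbb-bt, whereas the names Hbb-b1 and Hbb-b2 belong to a different haplotype of the same locus.

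The globin probes are shown because they decide which transcripts were read. All are 60 bases long. The Hba-a1 and Hba-a2 probes share a stretch of 30 bases with 3 differences, in capitals, which are T7C, C19T and C22T from Hba-a1 to Hba-a2, with positions counted from 1 at the 5′ end of the shared stretch. The Hba-a1 probe also lists the accession of Hba-a2, so the signals of both α-globin genes cannot be separated here.
Hba-a1 probe: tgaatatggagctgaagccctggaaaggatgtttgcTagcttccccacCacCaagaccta
Hba-a2 probe: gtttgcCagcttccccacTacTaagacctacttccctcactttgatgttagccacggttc
Of the Hbb-bt probes, the pair printed next overlaps by 29 bases (in capitals) without a mismatch, and both list the accessions of Hbb-bt, Hbb-bs and Hbb-b1, so the adult β-globin genes are not separated either. They are not independent measures of the transcript.
Hbb-bt probe, brightest: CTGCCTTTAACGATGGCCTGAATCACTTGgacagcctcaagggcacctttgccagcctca
Hbb-bt probe, overlapping: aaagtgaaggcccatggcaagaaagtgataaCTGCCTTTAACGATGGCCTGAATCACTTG
Hbb-bt probe, 5′-most of the 4: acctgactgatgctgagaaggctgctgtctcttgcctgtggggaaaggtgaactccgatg
The remaining Hbb-bt probe lists the accessions of Hbb-bt and Hbb-b2, not that of Hbb-b1. The Ahsp probe is given as the probe whose signal ran apart from the globins.
Ahsp probe: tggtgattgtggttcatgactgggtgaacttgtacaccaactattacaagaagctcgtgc
On mm9, the build of the array's probe positions, the Hba-a1 probe spans chr11:32183775-32183956 on the plus strand, 182 bases of genome for a probe of 60 bases. The brightest Hbb-bt probe lies at chr7:110962000-110962059 on the minus strand. The Slc4a1 probe lies at chr11:102210256-102210315, the Alas2 probe at chrX:147004993-147005052 and the Epor probe at chr9:21763422-21763481. The files list the Ahsp and Hba-a2 probes without a position.

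The adult globin transcripts were lower in both treatments at 2W, and at 3W the lower level was seen mainly with N-CE. Values are log2 ratios of treated over VC, the SD is over the 2 arrays of a dye swap (n = 2) and covers measurement error only. The call rule asks for a software P under 0.01 with the same direction on each of the 2 arrays, and for a mean fold over 1.5 (up) or under 0.75 (down). The thresholds are the study's, and asking for them on both arrays in the same direction was added here. Across all probes this rule called 0.685% up and 0.765% down in MXD 1W, 4.04% and 5.82% in MXD 2W, and 0.144% and 0.161% in MXD 3W. For N-CE the shares were 0.292% up and 1.49% down in N-CE 1W, 0.0682% and 0.0511% in N-CE 2W, then 0.151% and 0.139% in N-CE 3W. Over probes above background, the ratios of the 2 arrays of N-CE 2W correlated at -0.17, against 0.26 to 0.71 in the other comparisons, so that comparison is the least repeatable over the array. Of the 5 members, 2 were called up (Slc4a1, Ahsp) and 1 down (Hba-a1) in MXD 2W. In N-CE 1W, 2 were called down (Slc4a1, Ahsp). N-CE 2W had 1 call up (Slc4a1) and 1 down (Hba-a1), and N-CE 3W had 1 down (Hba-a1). None was called in MXD 1W or MXD 3W, where the software P was under 0.01 on 1 array for Ahsp at 1W and on no array for the others.

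Hba-a1, which encodes an adult α chain, had log2 ratios of -0.60 and -0.61 on the arrays of MXD 2W (mean -0.61 ± 0.0054, a fold of 0.656). In N-CE 2W the values were -0.64 and -0.62 (mean -0.63 ± 0.02, fold 0.647), and in N-CE 3W they were -0.79 and -0.74 (mean -0.76 ± 0.03, fold 0.589). All 3 were called down. The arrays of MXD 3W gave -0.28 and -0.30 (mean -0.29 ± 0.01), lower on both arrays but not past the fold. At 1W the gene lay close to VC, with 0.08 and 0.0096 in MXD and -0.17 and -0.12 in N-CE. Hba-a2 was called down in N-CE 2W (-0.63 ± 0.04) and N-CE 3W (-0.76 ± 0.0061). In MXD 2W its mean was -0.58 ± 0.07, with a P past the threshold on 1 of 2 arrays, and it was not called.

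Hbb-bt, an adult β chain of this strain, was called down in MXD 2W and N-CE 3W. Its brightest probe gave -0.85 and -0.71 in MXD 2W (mean -0.78 ± 0.10, fold 0.582) and -1.13 and -0.60 in N-CE 3W (mean -0.86 ± 0.37, fold 0.549). In N-CE 2W it gave -0.65 and -0.42 (mean -0.53 ± 0.16), with a P past the threshold on 1 array. On this probe the array with Cy5 on the treated pool read lower than its dye swap in all 6 comparisons, and in MXD 3W the arrays stood on opposite sides of 0, at -0.38 and 0.04. The other 3 Hbb-bt probes had means of -0.78, -0.78 and -0.53 in MXD 2W and of -0.75, -0.81 and -0.76 in N-CE 3W. All 4 Hbb-bt probes were called down in N-CE 3W and 3 of 4 in MXD 2W, the exception being the probe that does not list Hbb-b1, at -0.53 ± 0.03. That probe was also the lowest of the 4 in N-CE 1W, at -0.41 ± 0.06 against -0.08 to -0.20 for the others. At 1W none of the 4 was called in either treatment.

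**Figure D1:**
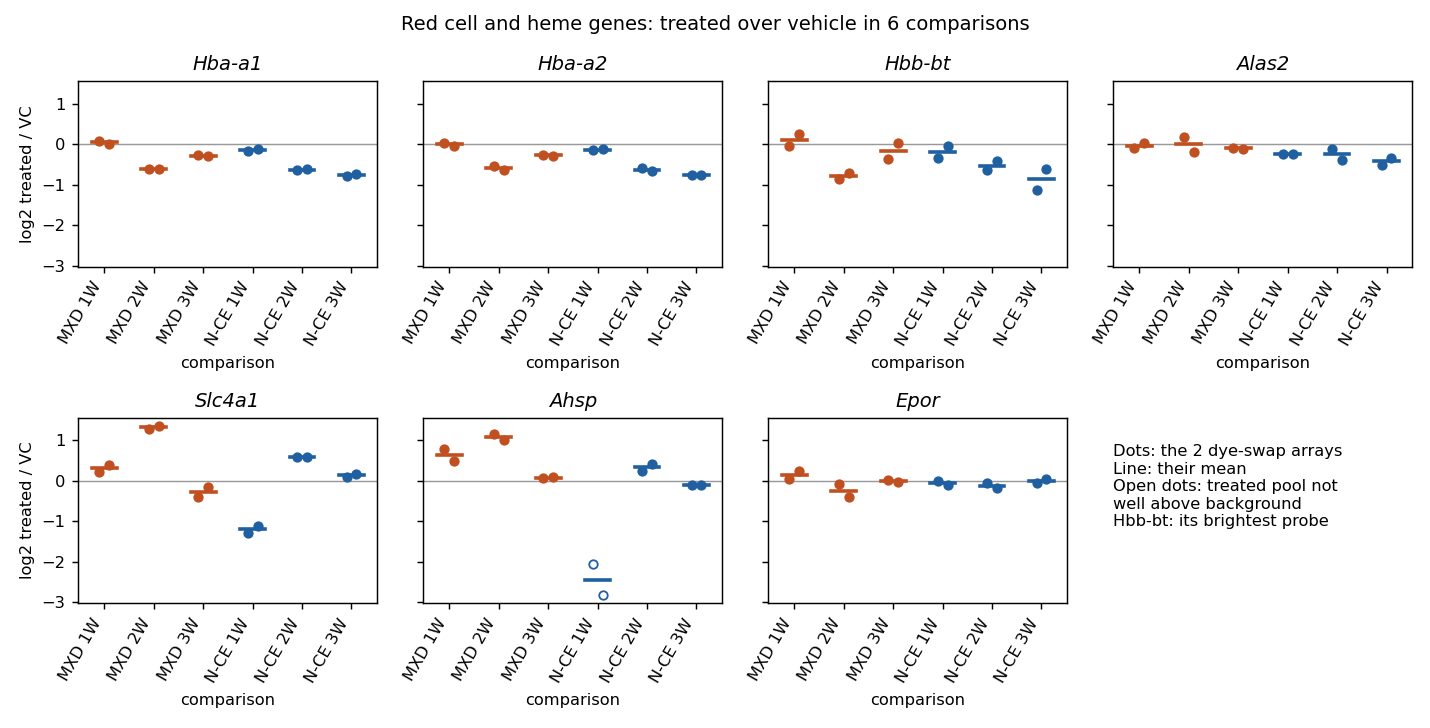
Log2 ratio of treated over VC (y axis) of 7 genes in the 6 comparisons (x axis), with a dot for each of the 2 dye-swap arrays and a line at their mean. The globins sit below 0 at 2W in both treatments and at 3W in N-CE, Slc4a1 and Ahsp sit highest in MXD 2W and lowest in N-CE 1W, and Epor stays within 0.25 of 0 in its means.

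Hba-a1 and Hbb-bt lie on different chromosomes and moved in the same comparisons, so the 250 bases before their starts are printed, from RefSeq on GRCm38.p6. Capitals mark matches on either strand. The letters searched for a GATA element were AGATAA and also TGATAA, those for a TATA box were TATAAA and also TATAAG, and the other motifs were CACCC and, separately, CCAAT.
Hba-a1, chr11:32283422-32283671, plus strand: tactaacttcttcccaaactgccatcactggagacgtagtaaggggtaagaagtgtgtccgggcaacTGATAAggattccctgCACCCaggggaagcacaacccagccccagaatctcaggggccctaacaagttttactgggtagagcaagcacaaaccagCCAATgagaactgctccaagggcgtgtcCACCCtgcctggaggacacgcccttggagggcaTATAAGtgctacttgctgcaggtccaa
Hbb-bt, chr7:103813924-103814173, minus strand: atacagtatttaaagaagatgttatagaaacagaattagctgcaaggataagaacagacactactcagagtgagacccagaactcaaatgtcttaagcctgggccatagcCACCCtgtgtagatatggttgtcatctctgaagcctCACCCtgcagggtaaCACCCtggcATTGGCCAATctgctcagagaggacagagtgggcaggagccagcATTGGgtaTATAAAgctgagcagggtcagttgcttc
The Hba-a1 window holds 1 GATA match, 2 CACCC, 1 CCAAT and 1 TATA match, and the Hbb-bt window holds 3 CACCC, 3 CCAAT and 1 TATA match and none of the GATA letters searched. Over all 32851 promoters of this length, 16.6% hold the GATA letters, 52.0% CACCC, 33.85% CCAAT and 17.0% the TATA letters. The Hba-a1 and Hba-a2 windows are identical over the 247 bases they share. These matches describe the letters of the windows and were not tested against the array values.

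The remaining haemoglobin chains gave little signal. Hba-x, Hbb-bh1 and Hbq1a, which belong to the embryonic or minor globins, were not well above background in any of the 24 channels, and Hbq1b was in 3. The embryonic Hbb-y was above background in all 24 channels, with mean log2 ratios between -0.12 and 0.21, and was never called. The calls at 2W and 3W were thus those of adult globins.

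Ahsp moved differently from the globin it binds. It gave 1.14 and 1.00 in MXD 2W (mean 1.07 ± 0.10, fold 2.10, called up), where Hba-a1 was called down. In MXD 1W it gave 0.77 and 0.48 (mean 0.63 ± 0.21, fold 1.55), past the fold with a P on 1 array. In N-CE 1W its treated pool was not well above background on either array, while the VC pool was on both, so only a bound can be given. VC was at least 1.55-fold higher, from normalized single-channel log2 means of 7.10 in VC and 6.47 in N-CE. The N-CE value entered as measured, since it was not under the lowest signal of a probe well above background on either array. The ratio of the software there, -2.43 ± 0.54, fell to -0.63 with another background correction (normexp and loess). In MXD 3W, N-CE 2W and N-CE 3W its means were 0.08, 0.34 and -0.10, and it was not called.

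Slc4a1 gave the largest rise among the members, 1.29 and 1.35 in MXD 2W (mean 1.32 ± 0.04, fold 2.49). In N-CE 1W it gave -1.29 and -1.10 (mean -1.19 ± 0.13, fold 0.437), called down, a value that was -0.66 with normexp and loess. In N-CE 2W it gave 0.58 and 0.60 (mean 0.59 ± 0.01), called up at a fold of 1.5015, at the edge of the threshold. In MXD 1W, MXD 3W and N-CE 3W its means were 0.31, -0.27 and 0.14. Slc4a1 and Ahsp were thus called in the same direction in MXD 2W and N-CE 1W, and in MXD 2W that direction was opposite to Hba-a1.

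Alas2, the erythroid enzyme of the first step of heme synthesis, was not called in any comparison. It was lower than VC on all 6 N-CE arrays, at -0.25 and -0.25 in 1W, -0.12 and -0.38 in 2W, and -0.51 and -0.34 in 3W. The N-CE 3W mean of -0.42 ± 0.12 is a fold of 0.746, just past 0.75, but the P passed on neither array. In MXD its means were -0.04, -0.0022 and -0.10, and in MXD 2W the arrays gave 0.18 and -0.18. Epor, the receptor through which erythropoietin keeps red cell precursors alive, was not called either. Its means ranged from -0.24 in MXD 2W to 0.14 in MXD 1W, and in those comparisons the arrays gave -0.09 and -0.39, and 0.04 and 0.25.

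As members were called in opposite directions, their median says little of each. It was 0.14 in MXD 1W, -0.0022 in MXD 2W and -0.10 in MXD 3W, beside -0.0057, 0.03 and 0.0020 over all measured genes. In N-CE it was -0.25, -0.12 and -0.10, beside 0.02, 0.0093 and 0.00099. Over the 3 adult globin genes alone, a list drawn up after the values were seen, the median was 0.05, -0.61 and -0.28 in MXD and -0.15, -0.63 and -0.76 in N-CE.

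Levels in single pools were read from the channels, as normalized log2 signal intensity with the VC pool on 4 arrays and each treated pool on 2. They can be set side by side within a gene only. Hba-a1 was highest at 1W, at 14.59 in VC (14.50 to 14.69), 14.62 in MXD and 14.49 in N-CE, and these 3 pools overlapped. At 2W it stood at 13.71 in VC (13.52 to 13.84), 13.22 in MXD and 12.97 in N-CE, and at 3W at 13.76 (13.44 to 13.90), 13.58 and 12.89. In that order, VC 3W, VC 2W and MXD 3W overlapped with their neighbours, MXD 2W stood below them, and N-CE 2W and N-CE 3W overlapped at the bottom. For Hbb-bt the lowest pools were also MXD 2W, N-CE 2W and N-CE 3W, at 13.58, 13.50 and 13.48. Here these 3 overlapped with one another, and the next pool above them, VC 2W (13.95 to 14.40), did not overlap with MXD 2W. The VC level at 2W minus that at 1W was -0.88 for Hba-a1 and -0.91 for Hbb-bt, larger in size than the log2 ratio of either treatment over VC at 2W. Over the same weeks the summed log2 level of the adult globins in VC went from 16.37 to 15.48 and that of the endothelial markers from 14.42 to 13.97. Each week was hybridized on a slide of its own, so week and slide cannot be told apart, while the treated and VC pools of a week share the slide.

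Alas2 was also lower at 2W than at 1W in every group, with differences of -0.98 in VC, -0.84 in MXD and -1.06 in N-CE. Its lowest pools were N-CE 2W and N-CE 3W, at 8.82 and 8.90, which overlapped with each other and, for N-CE 3W, with VC 2W at 9.15 (8.92 to 9.41). Ahsp and Slc4a1 ran the opposite way over the weeks. Ahsp in VC stood at 7.06 (6.95 to 7.15) in the first week, 9.19 in the second and 9.71 in the third, and was highest in MXD 2W, at 10.09, though that pool overlapped with N-CE 3W. Slc4a1 in VC stood at 7.86, 8.54 and 9.26, and its highest pool, MXD 2W at 9.90, stood above all others. Epor stayed between 7.39 in N-CE 3W and 7.89 in MXD 1W, with most neighbours overlapping. The VC pool of a week read on the MXD arrays and on the N-CE arrays differed by up to 0.44 for Slc4a1 (2W) and 0.22 for Hba-a1 (3W), a measure of array error in these levels.

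**Figure D2:**
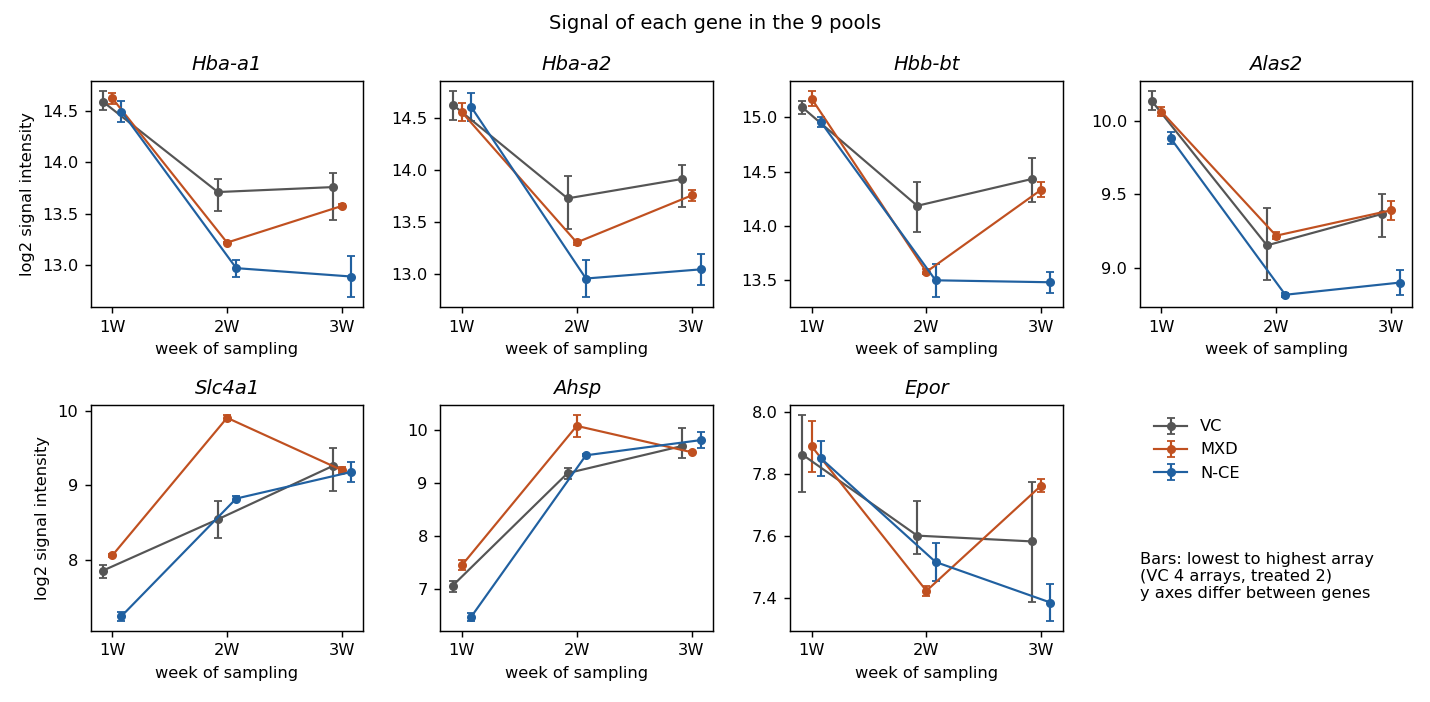
Normalized log2 signal intensity (y axis, separate for each gene) against the week of sampling (x axis) in VC, MXD and N-CE, with points at the mean and bars from the lowest to the highest array. Hba-a1 in VC falls from 14.59 to 13.71 between 1W and 2W, whereas Ahsp in VC rises from 7.06 to 9.19.

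Ahsp and Slc4a1 moved with genes of the hair shaft. Over 12 hair shaft keratins, the structural proteins of the hair fibre and a list added after the values were seen, the median log2 ratio was 0.61, 1.34 and 0.28 in MXD and -2.30, 0.33 and 0.08 in N-CE. All 12 were called up in MXD 2W and 11 were called down in N-CE 1W. Over the 6 comparisons Ahsp had a Pearson r between 0.971 and 0.998 with 11 of the 12 keratins and of 0.575 with Krt84. Slc4a1 had r between 0.889 and 0.977 with the same 11 and of 0.751 with Krt84. Hba-a1 had r between -0.45 and -0.08 with the 12. These are descriptions over 6 points that share a VC pool within a week, and the Ahsp point of N-CE 1W rests on a pool below background. Without N-CE 1W, a choice made after seeing the data, r over 5 comparisons lay between 0.877 and 0.985 for Ahsp with the 12 keratins, between 0.749 and 0.954 for Slc4a1 and between -0.25 and 0.33 for Hba-a1. The summed log2 level of the keratins lay between 15.90 and 16.04 in VC at 1W, at 13.53 to 13.82 in N-CE, and at 18.47 to 18.51 in MXD 2W, and none of the 12 was below background in any group. The VC pools of 1W, 2W and 3W had means of 15.94, 17.34 and 17.85, the same order over the weeks as for Ahsp and Slc4a1. The part of hair follicle RNA in the Ahsp and Slc4a1 values was not tested.

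**Figure D3:**
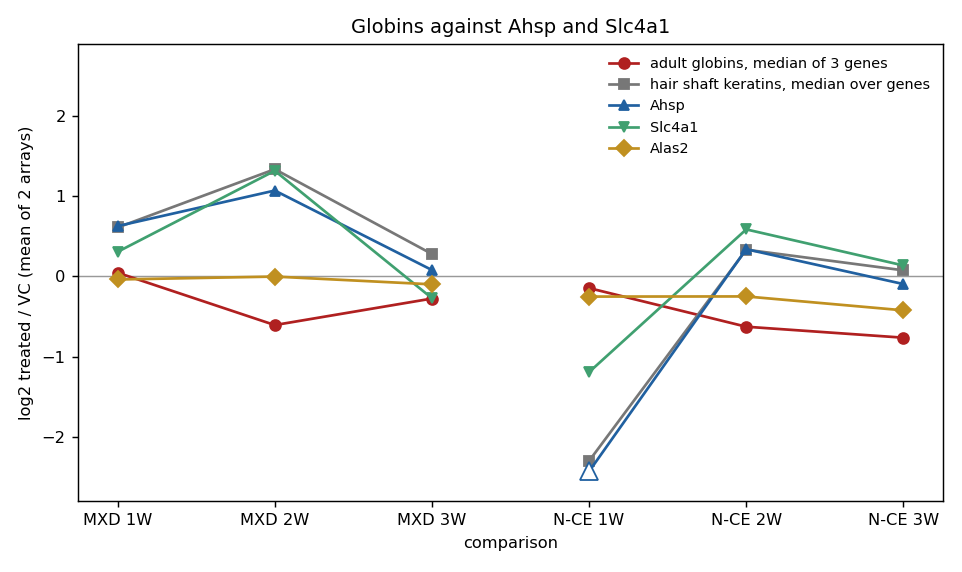
Mean log2 ratio of treated over VC (y axis) in the 6 comparisons (x axis) for Ahsp, Slc4a1 and Alas2 and for the medians of 3 adult globins and 12 hair shaft keratins. Ahsp and Slc4a1 run with the keratins, high in MXD 2W and low in N-CE 1W (open triangle, Ahsp not well above background), while the globins run at or below 0 from 2W on.

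The genes most like each member over the 6 comparisons were taken by Pearson r among genes above background in all channels whose spread was at least 0.5 of that of the member. For Ahsp none are named, since its N-CE 1W value, the farthest from 0 of the 6, comes from a pool below background. For Slc4a1, among 1828 genes, they were Rab15, 6720473M08Rik, Susd4, Gpx2 and AK035046, with r from 0.996 to 0.999. For Hba-a1, among 8619 genes, Hba-a2 came first with 0.998, followed by Tfec, Nts, Eif1a and Vcam1. For Hbb-bt, used in place of Hbb-b1 among 7012 genes, they were 1700024P16Rik, Nts, Vcam1, Spic and Tnmd, with r from 0.966 to 0.993, and Hba-a1 stood at 0.959. With 6 points and many candidates these values are descriptions and carry no p.

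Genes of the wider red cell and heme lists were called in both directions in MXD 2W. Outside the globins, Slc4a1 was the only one called in N-CE 2W, and none was called in N-CE 3W. Each gene was represented by its brightest probe, and genes below background in all channels of a comparison were left out. Among measured genes of the array, 1.25% were called up and 1.26% down in MXD 1W, 6.21% and 10.0% in MXD 2W, and 0.543% and 2.78% in N-CE 1W. Of 18 heme synthesis genes, 2 were called up in MXD 2W, the mitochondrial iron importer Slc25a37 (1.26 ± 0.39) and the glycine carrier Slc25a38 (1.04 ± 0.32), and Slc25a37 was called down in N-CE 1W (-0.79 ± 0.03). The list median stayed between -0.08 and 0.05 in all 6 comparisons. Of 14 genes of heme breakdown and handling, 3 were called down in MXD 2W and none elsewhere. They were the haemoglobin scavenger receptor Cd163 (-1.08 ± 0.02), the biliverdin reductase Blvrb (-0.65 ± 0.12) and the ferritin heavy chain Fth1 (-0.88 ± 0.05).

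Of 15 measured genes of the red cell membrane and its skeleton, MXD 2W called 2 up, Slc4a1 itself and Add2 (0.84 ± 0.04), and 4 down. These were Ank1 (-1.35 ± 0.37), Sptb (-1.21 ± 0.42), Tmod1 (-1.45 ± 0.29) and Gypc (-1.08 ± 0.22), of which Ank1, Sptb and Tmod1 are also known from skeletal muscle. Ank1 and Tmod1 were the only genes of the list called in MXD 1W, both at -0.71 (± 0.17 and ± 0.15). In MXD 2W all 10 skeletal muscle markers were called down, with a median of -1.46 ± 0.21, in MXD 1W 6 were called down, and the part of muscle RNA in these values was not tested. Of 19 red cell proteins and enzymes, 4 were called up in MXD 2W, namely Ahsp, the carbonic anhydrase Car2 (0.89 ± 0.04), Ube2o (0.73 ± 0.02) and Gclm (0.88 ± 0.25).

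Among 15 erythroid transcription factors in MXD 2W, Myb (1.104 ± 0.15), E2f2 (1.08 ± 0.22), Foxo3 (0.90 ± 0.34) and Bcl11a (0.69 ± 0.02) were called up, and Tal1 (-0.79 ± 0.17) and Sox6 (-1.25 ± 0.04) down. With normexp and loess the called genes kept their signs, but Tal1 was at -0.42, and the list median went from -0.65 to -0.10. In N-CE 1W, Myb (-0.84 ± 0.09) and E2f2 (-0.79 ± 0.12) were called down, the direction of Ahsp and Slc4a1. Of 12 measured genes of the erythropoietin pathway, the signal transducers Stat5a (-0.82 ± 0.03) and Stat5b (-0.87 ± 0.43) were called down in MXD 2W, and no gene of this list was called in another comparison.

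**Figure D4:**
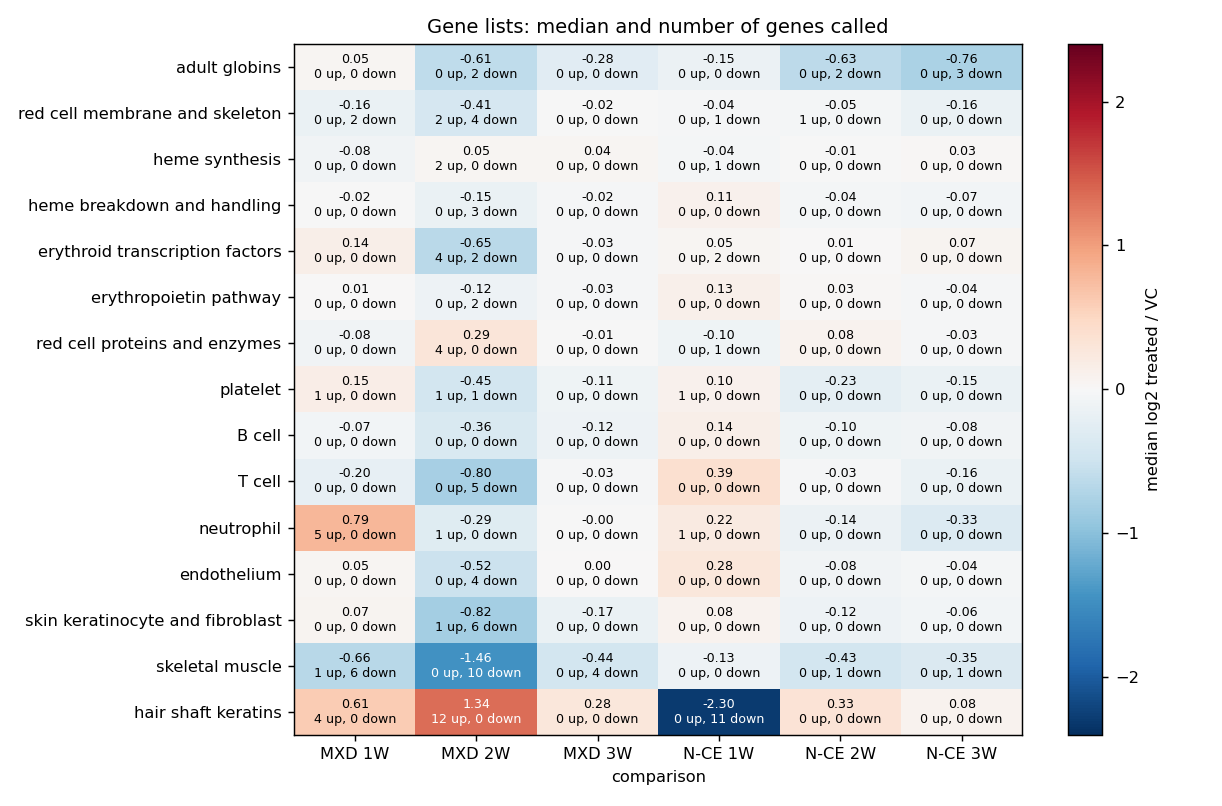
Median log2 ratio of treated over VC for 15 gene lists (rows) in the 6 comparisons (columns), with the number of genes called up and down printed in each cell and the median as colour. The adult globins reach -0.76 in N-CE 3W while the heme synthesis list stays near 0. The muscle and hair shaft lists hold the extremes of MXD 2W, and the hair shaft list is the lowest in N-CE 1W.

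Other cells of blood and vessels were read beside the globins. The 13 endothelial markers were above background in every pool, and in MXD 2W all 13 were lower (median -0.52 ± 0.03), with Tek, Vwf, Emcn and Cldn5 called down. In N-CE 2W and N-CE 3W, where the globins were lower too, 10 of 13 were below 0, with medians of -0.08 ± 0.04 and -0.04 ± 0.02, and none was called. In N-CE 1W, with the adult globins at -0.15, 12 of the 13 endothelial markers were above 0 (median 0.28 ± 0.02) and none was called. Their summed log2 level ranged from 13.88 to 14.08 in VC 2W, from 13.44 to 13.51 in MXD 2W and from 13.84 to 13.87 in N-CE 2W. The platelet list had medians of -0.45, -0.23 and -0.15 in MXD 2W, N-CE 2W and N-CE 3W. With normexp and loess these medians were only -0.13, -0.08 and -0.03. Pf4 was the only gene of the list called down (-0.96 ± 0.20, MXD 2W). Called up were Gp5 in MXD 2W (1.11 ± 0.27, or 0.43 with normexp and loess), Ppbp in MXD 1W (1.27 ± 0.02) and Clec1b in N-CE 1W (1.09 ± 0.38). Gp6 was below background in all pools. Its summed log2 level was 13.44 to 13.86 in VC 2W, 12.98 to 13.08 in MXD 2W and 13.26 to 13.38 in N-CE 2W, and at 3W 13.28 to 13.62 in VC and 13.12 to 13.29 in N-CE.

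White cell markers were called mostly in MXD. No B cell marker was called in any comparison, and between 4 and 8 of 10 were below background in a pool. Of 10 T cell markers, 5 were called down in MXD 2W (median -0.80 ± 0.09, or -0.40 with normexp and loess) and none in N-CE. In N-CE 1W 9 of the 10 were above 0, with a median of 0.39 ± 0.02. In MXD 1W, where 1.25% of all measured genes were called up, 5 of 10 measured neutrophil markers were called up. S100a8 and S100a9 led at 2.89 and 2.51, when the adult globins were at 0.05. The median of the 10 was 0.79 ± 0.02, or 0.28 with normexp and loess. Another 3 of the 10 were below 0, and the granule genes Elane, Camp, Ltf and Ngp were not above background in that pool. S100a8 was also called up in MXD 2W (0.96 ± 0.10) and S100a9 in N-CE 1W, where all 6 measured neutrophil markers were above 0. The skin markers themselves, keratinocyte and fibroblast genes, had a median of -0.82 ± 0.15 in MXD 2W with 6 called down and 1 up, and of -0.12 and -0.06 in N-CE 2W and N-CE 3W with none called. The part of blood, vessel and other cell content in the globin values was not tested.

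Over the 3 weeks together, with weeks in place of replicates, no probe passed an adjusted p of 0.05 in limma for MXD, N-CE or their difference (0.0% of 40820 probes each), and 4220, 1013 and 1379 probes had an unadjusted p under 0.05. Hba-a1 had a mean log2 ratio of -0.28 (SE 0.17, adjusted p = 0.548) in MXD and of -0.51 (SE 0.17, adjusted p = 1) in N-CE by limma. Alas2 had -0.31 (SE 0.05, unadjusted p = 0.0016, adjusted p = 1) in N-CE, as 1 of the 1013 probes with an unadjusted p under 0.05 there. It was lower on 6 of 6 N-CE arrays, which are dye swaps of the pools of 3 weeks and not 6 replicates. The brightest Hbb-bt probe had -0.28 (SE 0.21) in MXD and -0.53 (SE 0.21) in N-CE. For Ahsp the means were 0.59 and -0.73 (SE 0.58) and for Slc4a1 0.45 and -0.16 (SE 0.45), with adjusted p from 0.652 to 1 in limma. This main fit had no term for week, so the SE of a difference does not use the VC pool that both treatments share within a week. The difference of MXD minus N-CE was 0.23 (SE 0.24) for Hba-a1, 0.26 (SE 0.07) for Alas2, 1.32 (SE 0.82) for Ahsp, 0.61 (SE 0.64) for Slc4a1 and 0.02 (SE 0.11) for Epor, with adjusted p of 0.835 or above in limma. Several of these means moved by over 1.5 times when 1 week was left out. Without MXD 2W the MXD means were -0.12 for Hba-a1, -0.03 for the brightest Hbb-bt probe, 0.35 for Ahsp and 0.02 for Slc4a1, and without 1W those of Hba-a1 and Hbb-bt were -0.45 and -0.47. Without 1W the N-CE means turned to 0.12 for Ahsp and 0.36 for Slc4a1, and without 2W they were -1.26 and -0.53. Without 3W the Slc4a1 means were 0.81 in MXD and -0.30 in N-CE. The differences of MXD minus N-CE without 1W were 0.45 for Ahsp, whose N-CE pool was below background in that week, and 0.16 for Slc4a1. Without 3W they were 1.12 for Slc4a1 and 0.11 for Hba-a1. For Alas2 the N-CE mean lay between -0.34 and -0.25 and the difference between 0.23 and 0.29 whichever week was left out. For Epor the MXD mean was -0.12 without 1W and 0.07 without 2W.

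Set side by side within a week, MXD and N-CE share their VC pool. At 2W Hba-a1 was at -0.61 in MXD and -0.63 in N-CE, and the brightest Hbb-bt probe at -0.78 and -0.53. At 3W the treatments stood further apart, at -0.29 and -0.76 for Hba-a1, -0.17 and -0.86 for Hbb-bt and -0.10 and -0.42 for Alas2. The arrays of the treatments did not overlap for these genes at 3W. They did not overlap at 2W either for Hba-a1 (difference 0.02) and the brightest Hbb-bt probe (-0.25), so this does not set 3W apart. With 1 pool per treatment and week, these differences had no biological replicate and were not tested.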

How the data were processed

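RNA of whole back skin was read on two-colour Agilent arrays, 12 in all. Scans were read by the authors in Agilent's Feature Extraction, with version 12.0.3.1 in the file headers and 11.0.1.1 in the submitters' processing notes. The deposited log10 ratio sets Cy5 over Cy3 once background is subtracted and dyes are balanced by LOWESS. Each deposited p-value is the software's error estimate for 1 spot and holds nothing on the spread between mice. For both channels, raw and processed intensity were deposited. A series table of log10 ratios was also deposited.

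Here ratios were turned to treated over VC, converted to log2 and averaged over spots, without control spots and outlier spots, and over the dye swap. For single pools, normexp (offset 50), loess and Aquantile were used (limma 3.58.1, R 4.3.3, Python 3.11.15, pandas 2.3.3, numpy 2.4.6). Between 57.0% and 69.6% of spots of a channel were well above background and none was saturated. The ratios of the 2 arrays of a comparison correlated with r of 0.57, 0.71 and 0.26 in MXD 1W, 2W and 3W and of 0.60, -0.17 and 0.35 in N-CE, over probes above background, and the number of arrays limits the precision. Within a week there is 1 pool per group and no test across samples. On the weekly means limma was run with weeks as replicates, and p-values were adjusted over all probes by Benjamini-Hochberg. A probe below background in a group on both arrays has only a bound, from its own signal or, where that is lower, the lowest signal well above background on each array.

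The members and the gene lists were chosen with earlier results of these data known. All members are named. Of other lists, genes called in a comparison could be named, as could the 2 with the largest change, and many of these are not shown. The 5 genes most like a member were named by Pearson r. As no probe is named Hbb-b1, likeness to Hbb-bt, Hba-a1 and Slc4a1 was used instead, and the lists of adult globins and hair shaft keratins were added after seeing the data. The steps were tested on simulated data. Alternatives were other background correction, each array or week left out, outlier spots kept, the series table, the fold alone, symmetric folds, filters on dim probes and week as a random block.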

Additional observations from a re-analysis of the deposited data

Results flagged for a closer look

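In some weeks both arrays of MXD moved one way and both arrays of N-CE the opposite way against the same VC pool. The differences, MXD minus N-CE on the log2 scale, have 1 pool on each side and were not tested within a week. At 1W the difference was 3.06 for Ahsp, where the N-CE pool was below background so that the size is not measured, and 1.06 with normexp and loess. For Slc4a1 it was 1.501 at 1W, or 0.92 with normexp and loess, and -0.41 at 3W. For Ahsp at 3W it was 0.17, for Epor at 1W 0.20 and for Hba-a1 at 1W 0.19. The 5′-most Hbb-bt probe differed by 0.18 and the overlapping Hbb-bt probe by 0.17 at 1W. Some signs rest on an array near 0. On 1 MXD array of 1W, Hba-a1 was at 0.0096 and the 5′-most Hbb-bt probe at 0.0049, or -0.03 and -0.0017 with normexp and loess. Epor was at -0.00056 on 1 N-CE array. The other signs held with normexp and loess. For Ahsp at 3W and for Epor, Hba-a1 and both Hbb-bt probes at 1W, no array had a software P under 0.01.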

How the results depend on the processing

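No called value of a member, of Hba-a2 or of a Hbb-bt probe changed sign under any alternative. With 1 array left out it could not, since a call asks for the same sign on both arrays. Of 300 recomputed ratios 289 moved by less than the SD of their 2 arrays. Those with 1 array left out could not move further. Nor could those with outlier spots kept, as each of these probes has 1 spot, so the count says little of stability. The fold alone gave 1 member up in MXD 1W (Ahsp) and 2 down in N-CE 3W (Alas2 and Hba-a1). Leaving out either array gave 0 to 1 up in MXD 1W and 0 to 1 up in N-CE 2W, where Slc4a1 is at the threshold, and normexp and loess with the fold alone gave 0 up in N-CE 2W. With only members above background in both groups, 1 was called down in N-CE 1W and the median there was -0.20. Normexp and loess gave medians of -0.28 in N-CE 1W and -0.085 in N-CE 3W. With Hbb-bt standing for Hbb-b1, chosen after seeing the data, 2 were called down in MXD 2W and 2 in N-CE 3W, and the medians were -0.13 in MXD 3W, -0.23 in N-CE 1W and -0.26 in N-CE 3W. The cause of these changes was not tested. limma called 0 probes under each of its 6 alternatives in all 3 contrasts, and the adjusted p of the members ranged from 0.409 to 1. Signal near background limits Ahsp at 1W, and the dye-swap SD leaves out the spread between mice.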
